A study of Mus musculus with 8 samples.

Results

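The 45 genes described here encode the proteins of the large (60S) subunit of the mouse ribosome. They are the rows of the deposited count table whose gene symbol was a member of a list of large subunit proteins, from Rpl3 to Rplp2. Where a symbol stood on more than 1 row, the row with the highest mean count was taken, and all 45 members were found among the 54532 rows of the table. RNA was sequenced in bulk from the brain of male mice of 3 months: 4 libraries were wild type (WT) and 4 had the genotype label Nsun5-KO. The protocol gives 5 mice per genotype, taken from a shared litter and anaesthetised with pentobarbital at 50 mg/kg, and 4 libraries of each genotype were analysed here. The labels do not give the allele or how the knockout was made, and both groups share litter, sex, age and anaesthetic. Each p-value weighs the difference between the groups against the spread between the libraries within them.

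The large subunit holds the 28S, 5.8S and 5S ribosomal RNAs. It also holds the peptidyl transferase centre and the tunnel through which the new protein leaves. Nsun5 is a methyltransferase that adds a methyl group to a cytosine of the 28S RNA, so its substrate lies in the particle these proteins build. The mRNAs of ribosomal proteins are known as TOP mRNAs: they start with a C followed by a tract of pyrimidines (C or T), through which the mTOR pathway sets their translation together. Mammalian genomes also carry many processed pseudogenes of ribosomal protein genes, near-identical copies that can take or lose short reads.

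Nsun5 RNA was not lower in the knockout label. It stood at 5.74 ± 0.538 CPM (the count scaled to the normalised library size) in WT and 6.28 ± 0.887 CPM in the other group (SD, n = 4 each), with 82 to 124 counts a library. Its log2 fold change was 0.13 (SE 0.15, adjusted p = 0.817, edgeR quasi-likelihood test with Benjamini-Hochberg adjustment). A neighbouring gene overlaps Nsun5, and the part of its reads in these counts was not tested. The second group is therefore called the libraries labelled Nsun5-KO throughout. The libraries held 15642086 to 17829523 counts, and neuron markers such as Snap25 (33427 to 53730 counts) and myelin markers such as Mbp (30346 to 54622 counts) were high in all 8, as the brain label requires. The cerebellar genes Gabra6 (granule cells) and Pcp2 (Purkinje cells) were near 0, with at most 30 and 19 counts in any library. Of the 6 cerebellar markers listed, 4 had enough counts to be tested.

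The pyrimidine tract is the sequence feature that TOP mRNAs are known for, so the annotated starts of the members were read from RefSeq promoter windows (build GRCm38.p6). Of the 45 members, 34 matched by symbol, with 40 annotated starts. A tract was counted where the first base of the transcript was C and the next 4 bases were each C or T, on the transcript strand only. It was found for 7 of the 34 genes (20.6%), against 3.01% of all 27025 genes in the promoter set. Over starts, 7 of 40 (17.5%) held it, against 2.51% of 32851. The starts of those 7 genes follow, 10 bases before the annotated start and 15 from it. Capitals mark the unbroken run of C and T from the first transcribed base.
Rpl15, chr14:18270972-18270996, minus strand: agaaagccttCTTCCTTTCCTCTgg
Rpl35, chr2:39005117-39005141, minus strand: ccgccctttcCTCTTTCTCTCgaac
Rpl28, chr7:4792955-4792979, plus strand: tctcgtgtctCTCTTTCCgtctccg
Rpl35a, second of 3 starts, chr16:33056472-33056496, plus strand: gcttgccttcCTCTTTCCgccatct
Rpl38, chr11:114668570-114668594, plus strand: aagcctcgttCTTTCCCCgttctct
Rpl14, chr9:120571507-120571531, plus strand: ggccctctctCTTCTCgctgagcgc
Rplp2, chr7:141447641-141447665, plus strand: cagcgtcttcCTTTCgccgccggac

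The run was longest in Rpl15 (13 bases) and Rpl35 (11 bases), and shortest in Rplp2 (5 bases). Rpl27a had a run of 16, of which 15 are shown, that starts with T and so was not counted. Its line is given for comparison, with 3 members whose RNA was lower in every library labelled Nsun5-KO than in every WT library (Rpl10, Rpl5 and Rpl41, whose annotated starts show no run).
Rpl27a, chr7:109519185-109519209, plus strand: cgtgagctccTCCCTTTTCCCTTTC
Rpl10, chrX:74270806-74270830, plus strand: tacagtggaagataggccgcctata
Rpl5, chr5:107900518-107900542, plus strand: cgtcgcttgcgtgctggtggtgcta
Rpl41, chr10:128549154-128549178, minus strand: gggccggctcggaagtgacgacacc

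No match says only that these letters are not at the annotated base, and annotated starts can lie some bases from the start a cell uses. With a looser count, a run of at least 8 C or T whose first base lies within 10 bases of the start, 11 of 40 member starts (27.5%) held a run, against 9.21% of all starts. Counting also runs that begin further upstream and reach into these bases, as at Rpl7a, 18 of 40 (45%) did, against 14.0% of all starts. Among 28 starts of small subunit genes, 7 (25%) held the C and tract, and among 39 starts of genes for large subunit assembly factors 0 did.

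The members were abundant RNAs with a wide range of levels per transcript length. In FPKM (read counts divided by gene length and library size, which allows a comparison between genes), their median was 78.6, and 16 of 45 exceeded 100. Rplp1, an acidic protein of the lateral stalk that recruits translation factors, was first. Its level was 778, 858, 952 and 1046 FPKM in WT replicates 1 to 4, and 940, 920, 858 and 986 FPKM in the libraries labelled Nsun5-KO. The lowest of these 8 values lay far above every value of any other member, and the groups overlapped.

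Rpl41, the smallest protein of the ribosome, was second with 271, 314, 282 and 285 FPKM in WT and 245, 263, 189 and 257 FPKM in the libraries labelled Nsun5-KO. The groups did not overlap, and replicate 3 of the second group was the lowest. Rpl19, which reaches from the tunnel rim to the small subunit, followed with 261, 268, 243 and 269 FPKM in WT and 243, 262, 220 and 282 FPKM in the second group. Its groups overlapped, and its mean of 256 FPKM was equal to that of Rpl36 to 3 digits. The order among Rpl41, Rpl19, Rpl36 and Rpl4 (means 263, 256, 256 and 242 FPKM) was within the spread over libraries.

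At the other end stood Rpl24, Rpl13a and Rpl21. Rpl24, which joins the particle late and bridges both subunits, had 0.447, 1.17, 0.640 and 1.15 FPKM in WT and 1.33, 0.742, 0.962 and 0.491 FPKM in the libraries labelled Nsun5-KO. These rest on 8 to 22 counts a library, so its level and its fold change are imprecise. Rpl13a, which also acts outside the ribosome in silencing inflammatory mRNAs, had 5.53, 6.03, 7.37 and 7.99 FPKM in WT and 7.20, 7.70, 7.88 and 7.23 FPKM in the second group. Both genes share most of their coding bases with another annotated gene on the same strand: 83.4% for Rpl24 with Gm28037 and 90.3% for Rpl13a with Gm45713, both listed at 0 counts in all libraries. They were the only members with more than 50% shared in this way (GENCODE M21, whose lengths match the table for 44 of 45 members), and they were the lowest of the 45. The part of this overlap in their low levels was not tested. Rpl23a shared 55.3% of its coding bases with Tlcd1 on the opposite strand, and its mean was 101 FPKM. Rpl21, a core protein, had 16.7, 16.5, 13.6 and 20.8 FPKM in WT and 14.1, 12.5, 8.84 and 14.3 FPKM in the second group, with WT replicate 3 below replicates 1 and 4 of that group.

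**Figure D1:**
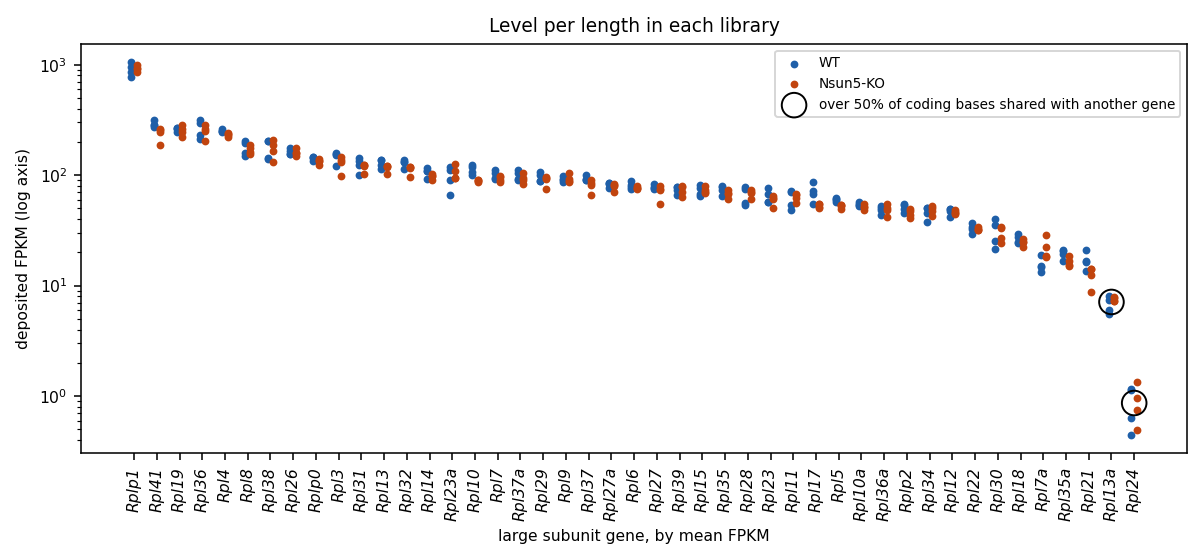
Deposited FPKM of each of the 45 genes in every library (log axis), ordered by the mean, with WT points in blue and libraries labelled Nsun5-KO in orange. Rplp1 (mean 917 FPKM) stands above the rest. The circled genes Rpl13a (7.12 FPKM) and Rpl24 (0.867 FPKM) share over 50% of their coding bases with another gene on the same strand.

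Between the groups, most members were slightly lower in the libraries labelled Nsun5-KO and none passed the test. All 45 were among the 16062 genes tested, and edgeR called 0 of them at an adjusted p below 0.05, as it called 0% of all genes. The smallest adjusted p of a member was 0.307. At an unadjusted p below 0.05, 8 members were lower and 1 was higher, against 5.05% and 5.3% of all genes tested. The log2 fold change was below 0 for 34 of 45 members, against 51.4% of all genes. Its median was -0.08 over the members and -0.0055 over all genes, and it ran from -0.45 (Rpl21) to 0.50 (Rpl7a). The difference was within 0.1 of 0 for 21 members and beyond 0.2 for 7, while the median standard error was 0.090. The 95% interval included 0 for 36 members. The groups did not overlap for 6 members, all lower (background 2.71% lower and 2.99% higher): Rpl10, Rpl17, Rpl5, Rpl41, Rpl37 and Rpl4. DESeq2, run as an alternative, called 1 member, Rpl10 (adjusted p = 0.0195), among 94 of 16121 genes (0.583% in either direction, 0.261% lower).

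**Figure D2:**
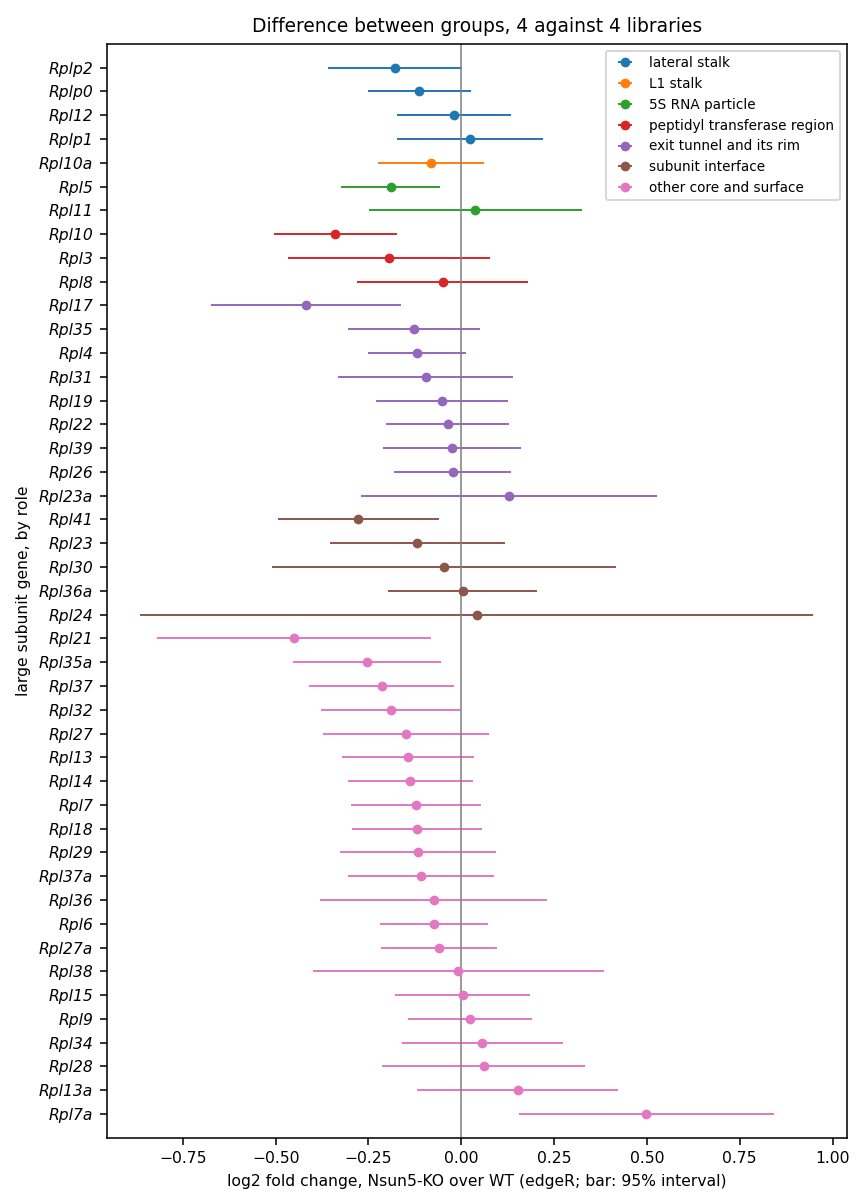
Log2 fold change of each gene, libraries labelled Nsun5-KO over WT, with its 95% interval from edgeR, grouped and coloured by the place of the protein in the subunit. Of 45 points, 34 lie left of 0 and 36 intervals include 0.

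The lateral stalk, made of Rplp0, Rplp1, Rplp2 and the neighbouring Rpl12, had a median log2 fold change of -0.07, with 3 of 4 below WT. Rplp2, which pairs with Rplp1 on the stalk, stood at 95.4, 103, 113 and 114 CPM in WT and at 98.6, 103, 84.7 and 90.6 CPM across the libraries labelled Nsun5-KO. The groups overlapped, with replicates 3 and 4 of the second group below all WT libraries. For Rplp2 the log2 fold change was -0.18 (SE 0.083, adjusted p = 0.485, edgeR quasi-likelihood, Benjamini-Hochberg). Its partner Rplp1 had 0.02 (-0.00036 with upper quartile scaling), Rpl12 -0.02 and Rplp0, the stalk base, -0.11 on the same scale. The only L1 stalk protein, Rpl10a, which moves spent tRNA out of the ribosome, had a log2 fold change of -0.08.

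Rpl5 and Rpl11 carry the 5S RNA into the subunit and, when free, bind the p53 regulator Mdm2. Rpl5 (chromosome 5, 107900502 to 107909005) stood at 226, 240, 244 and 235 CPM in WT and at 209, 210, 195 and 214 CPM across the libraries labelled Nsun5-KO. All 4 libraries of the second group were below all 4 of WT. The log2 fold change of Rpl5 was -0.19 (SE 0.062, adjusted p = 0.367, edgeR quasi-likelihood, Benjamini-Hochberg). Rpl11 did not share that pattern: it stood at 130, 146, 197 and 192 CPM in WT and at 170, 182, 150 and 180 CPM in the second group. WT replicates 1 and 2 were the lowest 2 of its 8 values, and its log2 fold change was 0.04 (SE 0.13), or -0.06 without WT replicate 1. The difference between the fold changes of Rpl5 and Rpl11 was not tested.

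Near the peptidyl transferase centre, Rpl10, Rpl3 and Rpl8 were all below WT, with a median of -0.19. Rpl10, which joins the subunit late in the cytoplasm and reaches toward the catalytic centre, had the smallest p of all members. Rpl10 (chromosome X, 74270812 to 74273135) stood at 248, 255, 206 and 220 CPM in WT and at 185, 187, 181 and 181 CPM across the libraries labelled Nsun5-KO. The 4 values of the second group lay close together and below all WT values, with means of 232 ± 23.0 and 184 ± 2.99 CPM (SD, n = 4 each). This is a log2 fold change of -0.34 (SE 0.076, adjusted p = 0.307, edgeR quasi-likelihood, Benjamini-Hochberg), or a difference of -20.97%. No edgeR setting called it, and its fold change lay between -0.39 and -0.22 over the 23 alternatives.

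Rpl3, which sits beside Rpl10 and shapes the factor binding site, stood at 494, 506, 385 and 490 CPM in WT and at 418, 440, 316 and 464 CPM in the second group. WT replicate 3 lay among the libraries labelled Nsun5-KO, and the log2 fold change was -0.19 (SE 0.12, adjusted p = 0.626, edgeR quasi-likelihood, Benjamini-Hochberg), or -0.087 without replicate 3 of the second group. In WT replicate 3 and that replicate, the pseudogene Rpl3-ps1 (99.8% identical) had 1534 and 1267 counts, against 489 to 583 in the other 6 libraries. With its copies added, Rpl3 stood at 480 CPM in WT replicate 3. Replicate 3 of the second group was then at 397 CPM, still the lowest library. The log2 fold change was -0.195 with copies added, against -0.194 from its own row. Rpl8, which contacts the catalytic RNA, had a log2 fold change of -0.05 with overlapping groups.

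Of the 9 proteins that line the exit tunnel or its rim, 8 were below WT, and their log2 fold changes had a median of -0.05. Rpl17, at the tunnel, stood at 52.6, 56.2, 42.8 and 67.6 CPM in WT and at 39.8, 38.9, 42.7 and 42.6 CPM across the libraries labelled Nsun5-KO. The groups did not overlap, but WT replicate 3 was above the highest library of the second group by less than 0.1 CPM. For Rpl17 the log2 fold change was -0.42 (SE 0.12, adjusted p = 0.316, edgeR quasi-likelihood, Benjamini-Hochberg). Rpl4, whose long arm narrows the tunnel, stood at 505, 532, 511 and 493 CPM in WT and at 470, 475, 449 and 486 CPM in the second group. Its groups did not overlap at a log2 fold change of -0.12 (SE 0.061), and the SDs were 16.3 and 15.8 CPM.

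Rpl23a, the docking point of the signal recognition particle at the tunnel exit, was the 1 tunnel gene above WT. It stood at 56.3, 77.8, 96.0 and 101 CPM in WT and at 81.2, 107, 80.4 and 92.7 CPM across the libraries labelled Nsun5-KO. All but the highest library of the second group lay within the WT range, and the log2 fold change was 0.13 (SE 0.18), or -0.02 without WT replicate 1. The library kit does not mark the strand, so where genes overlap on opposite strands their reads cannot be separated. Rpl23a shares 59.7% of its exon bases with Tlcd1, and Rpl35 66.2% of its own with Wdr38, both on the opposite strand. Wdr38 had a mean of 4.38 counts and Tlcd1 of 280 a library. The same limit holds for Rpl5, which shares 24.3% of its exon bases with Fam69a (mean 484 counts). It also holds for Rpl31, which shares 25.3% with Tbc1d8 (mean 501 counts).

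At the interface with the small subunit, 3 of 5 genes were below WT (median -0.05). Rpl41 (chromosome 10, 128548114 to 128549305), which bridges both subunits, stood at 320, 371, 332 and 336 CPM in WT and at 288, 308, 222 and 303 CPM across the libraries labelled Nsun5-KO. The groups did not overlap, and replicate 3 of the second group lay far below its other libraries. For Rpl41 the difference was a log2 fold change of -0.28 (SE 0.10, adjusted p = 0.412, edgeR quasi-likelihood, Benjamini-Hochberg), and -0.18 without that replicate. Rpl23, Rpl30 and Rpl36a had -0.12, -0.05 and 0.00 on the same scale, all with overlapping groups. Rpl24 had 0.04 with a 95% interval from -0.86 to 0.95, so a difference of that size in either direction was not detectable at its depth.

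The other 21 proteins of the core and surface had a median log2 fold change of -0.11, with 15 below WT. Rpl35a, a gene mutated in Diamond-Blackfan anaemia, stood at 60.01, 69.4, 75.1 and 73.3 CPM in WT and at 54.6, 66.0, 53.6 and 58.9 CPM across the libraries labelled Nsun5-KO. Replicate 2 of the second group was above the lowest WT library, and the log2 fold change was -0.25 (SE 0.092, adjusted p = 0.412, edgeR quasi-likelihood, Benjamini-Hochberg).

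Rpl37, which binds the 28S RNA, stood at 156, 170, 154 and 154 CPM in WT and at 145, 152, 113 and 137 CPM in the second group. The groups did not overlap. For Rpl37 it was -0.21 (SE 0.090, adjusted p = 0.446, edgeR quasi-likelihood, Benjamini-Hochberg), and -0.13 without replicate 3 of the libraries labelled Nsun5-KO. Rpl32, a core protein, stood at 110, 128, 132 and 128 CPM in WT and at 112, 116, 93.9 and 116 CPM in the second group. WT replicate 1 lay below 3 libraries of the second group, and the log2 fold change was -0.19 (SE 0.086), or -0.12 without replicate 3 of the libraries labelled Nsun5-KO.

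Rpl21 had the lowest fold change of the 45. It stood at 57.4, 56.8, 46.6 and 71.2 CPM in WT and at 48.2, 42.6, 30.2 and 48.9 CPM across the libraries labelled Nsun5-KO. WT replicate 3 was below replicates 1 and 4 of the second group, so the groups overlapped. Its log2 fold change was -0.45 (SE 0.17, adjusted p = 0.412, edgeR quasi-likelihood, Benjamini-Hochberg), and -0.32 without replicate 3 of the libraries labelled Nsun5-KO.

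Rpl7a, a core protein whose gene lies in the surfeit cluster, went the other way. Rpl7a (chromosome 2, 26910764 to 26913318) stood at 27.0, 24.2, 34.0 and 26.4 CPM in WT and at 32.5, 51.7, 40.2 and 33.4 CPM across the libraries labelled Nsun5-KO. WT replicate 3 was above replicates 1 and 4 of the second group. Its log2 fold change was 0.50 (SE 0.16, adjusted p = 0.361, edgeR quasi-likelihood, Benjamini-Hochberg). The next highest was Rpl13a, which stood at 11.8, 12.9, 15.7 and 17.0 CPM in WT and at 15.3, 16.4, 16.7 and 15.4 CPM in the second group. WT replicates 1 and 2 were its lowest libraries, WT replicate 4 its highest, and its log2 fold change was 0.15 (SE 0.12), or 0.066 without WT replicate 1 and 0.24 without WT replicate 4.

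The 3 members with the largest differences in either direction, Rpl7a, Rpl21 and Rpl17, have near-identical copies that hold many reads. Annotated pseudogene copies, at least 95% identical over at least 80% of the coding sequence, numbered 349 and were found for 43 of 45 members. Together they held 9.71% of the counts of the members. For Rpl17 they held 371% of its own count: Rpl17-ps10 had a mean of 1897 counts and Rpl17-ps3 of 1004, against 801 for Rpl17 itself. The same share was 283% for Rpl24, 110% for Rpl21 and 71.8% for Rpl7a, against 1.21% for Rpl10. Fold changes of Rpl17, Rpl21, Rpl24 and Rpl7a are uncertain for this reason, since the counting could have split reads between gene and copy. A low share does not set Rpl10 apart in sequence. Of the 50-base stretches of its coding sequence, 100% were also found in pseudogenes elsewhere, and 25 members exceeded 90%. The read counter is not named, so reads that fit several places may have been left out, and adding copy counts cannot restore them.

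With the counts of the copies added to their gene, an alternative chosen after seeing the data, the log2 fold change of Rpl17 went from -0.42 to -0.06. Summed in this way, Rpl17 stood at 223, 229, 231 and 240 CPM in WT and at 220, 225, 205 and 234 CPM across the libraries labelled Nsun5-KO, and the groups overlapped. Rpl21 went from -0.45 to -0.18, Rpl7a from 0.50 to 0.30 and Rpl24 from 0.04 to 0.34. Rpl10 was at -0.34 both ways. The count of members below WT was 34 both ways and the median moved from -0.08 to -0.085 (edgeR, 0 called both ways). Of the 31 members whose copies held under 10% of their counts, 24 were below WT (median -0.10), and of the other 14 members 10 were (median -0.06).

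**Figure D3:**
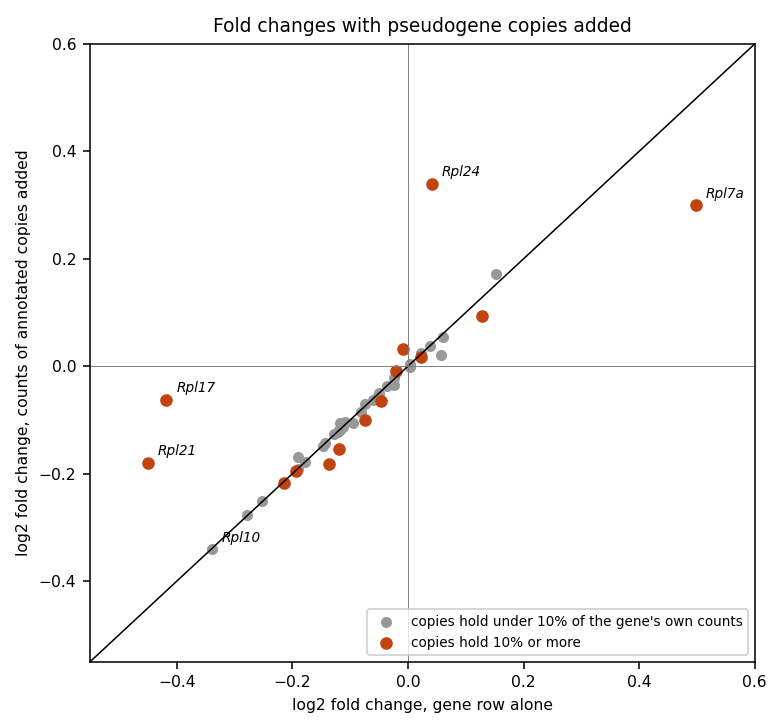
Log2 fold change of each gene from its own row (x axis) and with the counts of its annotated pseudogene copies added (y axis), and the line of equality. Rpl17, Rpl21, Rpl24 and Rpl7a leave the line, all with copies that hold 10% or more of their counts (orange), while Rpl10 stays on it at -0.34.

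Libraries of the same group also differed from each other. Members took 0.734%, 0.790%, 0.805% and 0.837% of all counts in WT replicates 1 to 4, and 0.728%, 0.775%, 0.647% and 0.763% in the libraries labelled Nsun5-KO. The means were 0.791% ± 0.0432 and 0.728% ± 0.0580 (SD, n = 4 each), and the groups overlapped. The member score, the mean log2 CPM of the 45 genes minus its WT mean, was -0.15, 0.00, 0.04 and 0.11 in WT and -0.05, -0.01, -0.22 and -0.03 in the second group. WT replicate 1 was thus lower than 3 of the 4 libraries labelled Nsun5-KO, and replicate 3 of the latter was the lowest of all.

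That replicate held the lowest value of the 8 libraries for 28 of 45 members (62.2%), against 14.99% of all genes tested. WT replicate 1 held it for 15 members (33.3%), against 15.4% of all genes. The remaining 2 lowest values were Rpl7a in WT replicate 2 and Rpl17 in replicate 2 of the libraries labelled Nsun5-KO. Members lowest in WT replicate 1 included Rplp1, Rpl11, Rpl12, Rpl8, Rpl22, Rpl23a, Rpl31 and Rpl30. Without replicate 3 of the libraries labelled Nsun5-KO, 29 of 45 members were below WT (50.7% of all genes) with a median of -0.04, and 6 did not overlap (4.02% of all genes, lower). Without WT replicate 1, 43 were below (51.1% of all genes) with a median of -0.13, and 12 members had groups that did not overlap, all lower (4.55% of all genes). With both left out, an alternative chosen after seeing the data, 35 were below (50.3% of all genes), the median was -0.08 and 11 did not overlap, all lower (6.1% of all genes). Fewer libraries make such separation more frequent, so each count is read against its own share. Rpl10, Rpl5, Rpl41, Rpl37 and Rpl4 had log2 fold changes of -0.30, -0.19, -0.21, -0.14 and -0.10 with both left out.

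**Figure D4:**
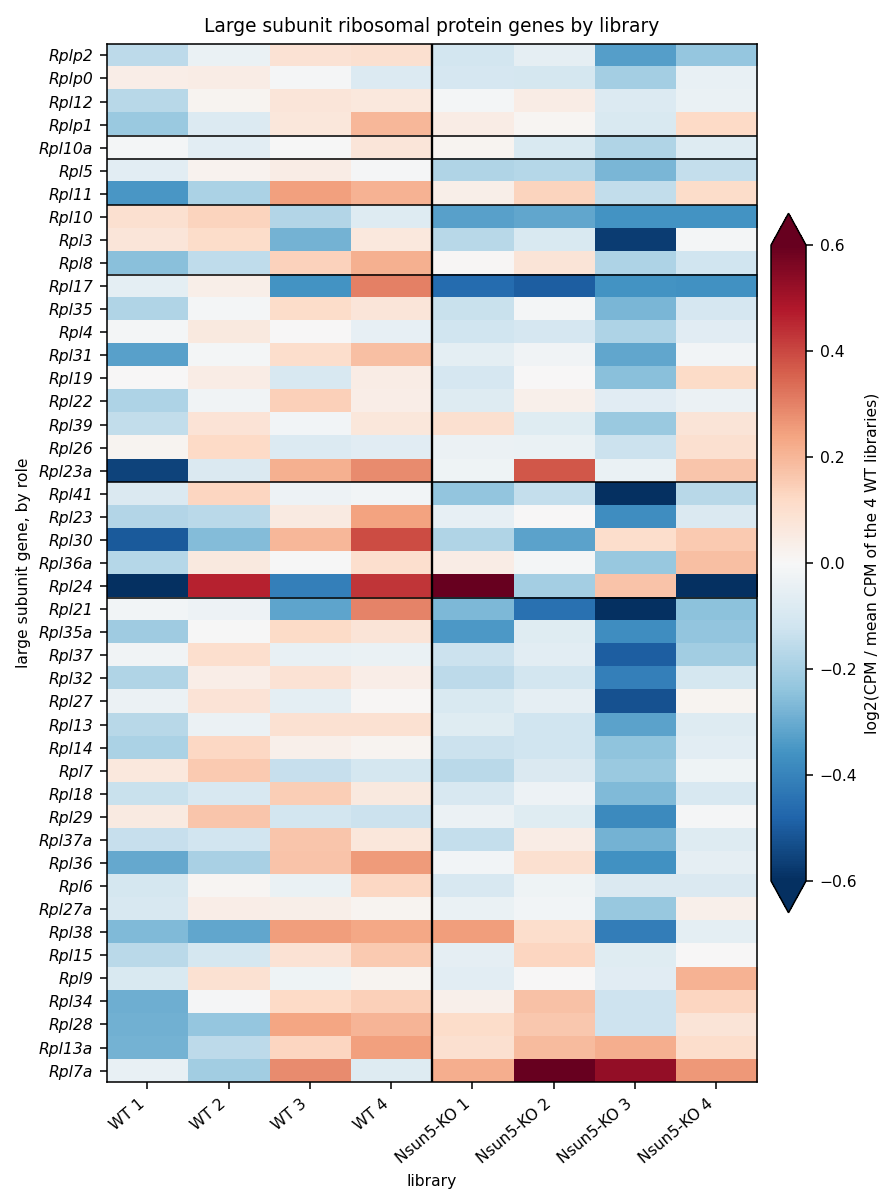
Log2 ratio of the CPM of each gene to its WT mean in each of the 8 libraries, ordered by role, with colours limited at 0.6 either way. Members below the WT mean (blue) numbered 38, 23, 18 and 10 of 45 in WT replicates 1 to 4, and 33, 28, 41 and 29 in the libraries labelled Nsun5-KO. The row of Rpl10 is blue in all 4 libraries labelled Nsun5-KO.

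Genes that work with the members gave a reference for their direction. Among 32 small subunit protein genes 28 lay below WT, their median was -0.13, and edgeR called 0 (5 lower and 1 higher at an unadjusted p below 0.05). The smallest p values were those of Rps6, the substrate of S6 kinase (287 ± 14.1 CPM in WT and 235 ± 19.1 in the second group, log2 fold change -0.29), Rps23 of the decoding centre (-0.34) and Rps21 (-0.22). Replicate 3 of the libraries labelled Nsun5-KO held the lowest value of 21 of the 32.

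Of 39 tested factors of large subunit assembly, out of 40 listed, 17 were below WT, with a median of 0.02 and 0 at an unadjusted p below 0.05. Those with the smallest p were Nsa2, a late assembly factor (-0.19), Bop1, which acts in 28S and 5.8S processing (0.14), and Dnajc21, which recycles a shuttling factor in the cytoplasm (0.23). Of 14 regulators of TOP mRNAs, 5 were below WT, with a median of 0.05 and 0 at an unadjusted p below 0.05. The mTOR subunit Rptor had 0.13, the S6 kinase Rps6kb1 0.13 and the poly(A) binding protein Pabpc1, itself a TOP mRNA, -0.14. DESeq2 called 1 gene of the small subunit list and edgeR none of the 3 lists.

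Of 8 listed large subunit genes outside the 45, 4 were tested: 2 were below WT and 2 above, and edgeR called 0 (2 lower and 0 higher at an unadjusted p below 0.05). Those above WT were the paralogs Rpl7l1 and Rpl22l1. Rpl7l1 had a WT mean of 49.8 ± 1.56 CPM against 53.3 ± 2.78 CPM in the second group (SD, n = 4 each), a log2 fold change of 0.10. Rpl22l1 stood at 31.2 ± 9.42 and 35.7 ± 1.45 CPM, a log2 fold change of 0.19, and the groups of both genes overlapped. The 4 untested paralogs were near 0: Rpl3l had 2 to 7 counts, Rpl36al 1 to 5, Rpl39l 0 to 2 and Rpl10l 0 in all libraries.

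Markers of some cell types and brain regions also differed between the groups, and in bulk tissue fewer cells of a type and less RNA per cell cannot be told apart. All 14 mature oligodendrocyte markers were below WT (median -0.41), with library scores from -0.04 to 0.10 in WT and from -0.71 to -0.15 in the second group. Replicate 3 of the libraries labelled Nsun5-KO was the lowest in this score (-0.71) as in the member score (-0.22). Replicate 1 of that group was at -0.61 in this score and at -0.05 in the member score. WT replicate 1 was low in the member score (-0.15) and not in this one (-0.01). Neuron markers were above WT for 9 of 10 (median 0.20, scores from -0.05 to 0.05 and from 0.10 to 0.18). Ependymal markers were below for 8 of 8 (median -1.14, scores from -0.48 to 0.37 and from -1.49 to -0.61) and hypothalamic markers for all 8 tested of 11 (-2.05, scores from -1.25 to 0.57 and from -2.26 to -1.65). Cortical and hippocampal markers were above for 7 of 8 (0.45), with overlapping scores (-0.27 to 0.20 and 0.12 to 0.64). Choroid plexus markers were below for 8 of 8 (-0.89) but varied by library, with scores from -1.004 to 0.69 and from -2.93 to 0.55 and 0 of 8 at an unadjusted p below 0.05. Astrocyte (5 of 7 below WT), microglia (5 of 8), endothelium (4 of 6), thalamus and midbrain (3 of 6 tested), cerebellum (3 of 4 tested) and blood markers (3 of 5) had overlapping scores. Mitochondrially encoded protein genes were below for 13 of 13 (-0.20, 4 at an unadjusted p below 0.05), with scores from -0.11 to 0.17 and from -0.41 to -0.08. The part of these differences in the levels of the ribosomal protein genes was not tested.

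**Figure D5:**
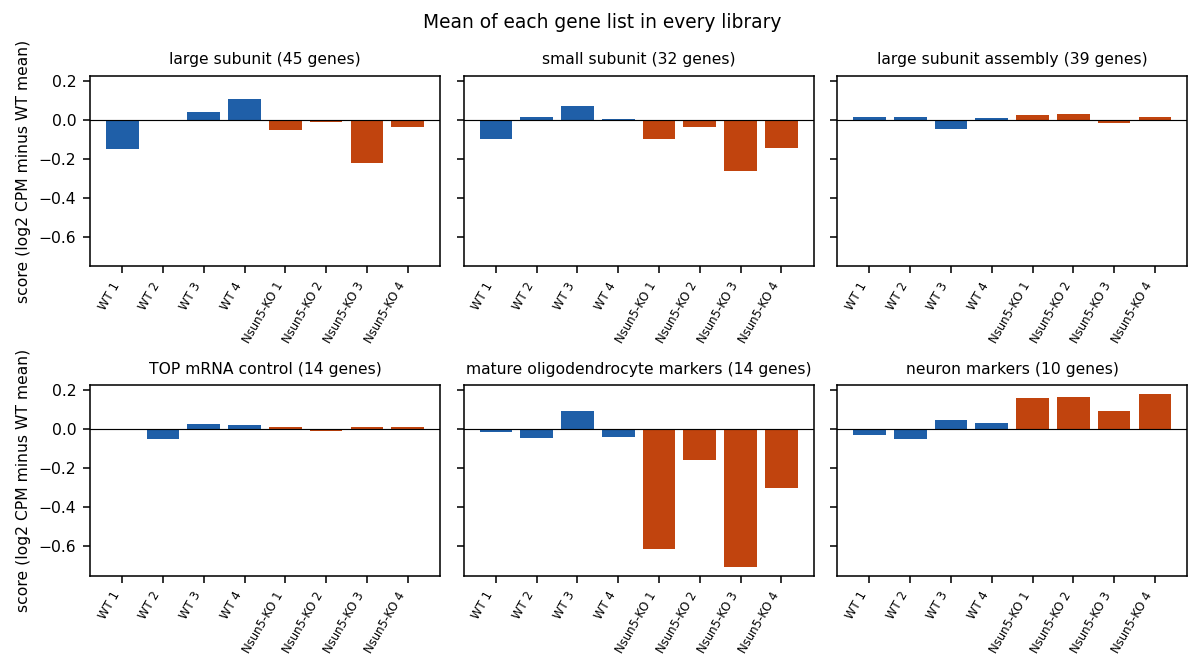
Score of 6 gene lists in each library, the mean log2 CPM of the list minus its WT mean, with WT bars in blue and libraries labelled Nsun5-KO in orange. The large subunit scores of the groups overlap (-0.15 to 0.11 and -0.22 to -0.01), as do those of the small subunit, while oligodendrocyte and neuron scores do not overlap.

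The members also host small nucleolar RNA (snoRNA) genes, which guide the modification of ribosomal RNA and are released from introns. In the table, 38 snoRNA genes lay inside 19 members, led by Rpl4 with 5 and Rpl13a with 4. Of the 38, 21 had 0 counts in all 8 libraries. Snord42b in Rpl23a had the most, with 4 to 14 counts a library and 70 over all 8, which is too few for a comparison.

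Over the 45 members, the log2 fold change had Spearman's rho of -0.14 with the mean CPM and -0.09 with gene length in the table, and over all 16062 genes 0.23 with average CPM and 0.07 with length. These describe genes that share the same 8 libraries and are not independent.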

How the data were processed

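RNA of 8 brain samples was sequenced, 4 WT and 4 labelled Nsun5-KO. RNA was extracted with TRIzol and made into libraries with a NEBNext Ultra kit, per the labels' protocols. Reads were aligned with HISAT2 2.0.5 to mm10, per the submitters' processing notes, and neither read counter nor annotation was named (not given in the sources used here). In the deposited count table the authors give whole numbers of reads per gene that were not normalised. The deposited FPKM table holds values scaled by gene length and library size, used here to compare levels between genes.

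The test was that of edgeR 4.0.16, run in R 4.3.3 on the counts (filterByExpr, TMM scaling, robust quasi-likelihood F test, no covariates) over all genes, with Benjamini-Hochberg adjustment over 16062 genes and a call at an adjusted p below 0.05. CPM are scaled to TMM library sizes, and library scores use a prior count of 2. The fit was tested on simulated data. The members and gene lists were chosen with earlier results of these data known. Members given in every library are the 10 with the smallest p, the 3 with the highest fold change, and the 3 highest and 3 lowest by FPKM; of other lists, the 3 with the smallest p. Rpl3, Rpl4 and Rpl11 were chosen for this after their values were seen. Some genes that this rule takes are not reported here. Of 100 repeated symbols in the table, the row with the highest mean count was used.

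Copies were found with coding sequences of GENCODE M21. Alternatives were DESeq2 1.42.0, limma 3.58.1 (voom, and log2(FPKM + 1) or log2(FPKM + 0.1)), other scalings, no low-count filter, protein-coding genes alone, pseudogene counts added, the replicate number as a block, and libraries left out.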

Additional observations from a re-analysis of the deposited data

Results flagged for a closer look

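In 5 of 92 groups checked (the 45 members and their summed share of counts, in each group of 4 libraries), a single library lay far from the other 3, its gap to the nearest taking up most of the range of the group (Dixon's test, 95% level). Chance flags about 1 in 20 groups. Rpl3 had 385 CPM in WT replicate 3, where the nearest WT library had 490; its copy Rpl3-ps1 had 1534 counts there, against 561 to 583 in the other WT libraries, and with copies added Rpl3 was at 480 CPM, against 523 to 545. Rpl31 had 170 CPM in replicate 3 of the libraries labelled Nsun5-KO, with the nearest at 203. Rpl6 had 251 CPM in replicate 2 of that group, above the nearest at 240. Rpl27a had 215 CPM in WT replicate 1, below the nearest at 233, and Rpl37 had 170 CPM in WT replicate 2, above the nearest at 156.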

How the results depend on the processing

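The number of members called was 0 at every setting except DESeq2, which called 1 (Rpl10, log2 fold change -0.33). Leaving out each library in turn gave 0 called and a median log2 fold change from -0.13 to -0.04. From 29 to 43 members were below WT, against 50.7% to 52.4% of all genes. From 6 to 12 members had groups that did not overlap. All were lower, except without WT replicate 3, where 8 were lower and 1 higher. Over all genes these settings gave 4.01% to 5.35% lower and 3.78% to 5.52% higher. The number of members without overlap was 23 without WT replicates 1 and 2 (all lower, 9.19% of all genes). It was 11 without WT replicate 1 and replicate 3 labelled Nsun5-KO (all lower, 6.1%). With all libraries kept it was 6 in the main fit. It was 5 with DESeq2, RLE scaling, no low-count filter, either FPKM fit, or pseudogene or copy counts added. Those 5 were all lower, against 1.06% to 2.71% of all genes. Several of the values near 0 changed sign. Rplp1 was at -0.00036 with upper quartile scaling, -0.0026 with library totals, -0.11 without WT replicates 1 and 2, -0.0086 without WT replicate 1 and replicate 3 labelled Nsun5-KO, and from -0.047 to 0.093 with 1 library left out. Without WT replicates 1 and 2, Rpl13a was at -0.039, Rpl23a at -0.12 and Rpl24 at -0.036, and with 1 library left out Rpl23a ran from -0.021 to 0.23. Rpl24 was at -0.47 without replicates 1 and 3 labelled Nsun5-KO, at -0.22 without WT replicate 1 and replicate 3 labelled Nsun5-KO, and from -0.23 to 0.24 with 1 library left out. Rpl19 was at 0.059 without replicates 1 and 3 labelled Nsun5-KO, 0.0090 without WT replicate 1 and replicate 3 labelled Nsun5-KO, and from -0.11 to 0.010 with 1 library left out. The cause was not tested. Over 23 settings 25 members kept their sign and 20 did not. With the replicate number as a block, 0 members were called (smallest adjusted p 0.588), the median was -0.08 and 35 were below WT. The numbers did not pair the samples, since same-numbered libraries had correlations from -0.21 to 0.06 and 0 of 8 libraries correlated best with its own number. Best partners were mutual: WT replicates 1, 2, 3 and 4 with replicates 3, 4, 1 and 2 labelled Nsun5-KO. What these pairs share was not tested. The order by FPKM was the same on log2(FPKM + 1) for 43 of 45 members. Counts limit Rpl24 (8 to 22 a library), and 4 libraries a group limit the rest.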
